A study of Danio rerio with 6 samples.

Results

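The 9 genes described here, sox10, olig1, olig2, nkx2.2a, myrf, pou3f1, erbb2, erbb3b and egr2b, regulate how oligodendrocytes and Schwann cells arise and begin to make myelin. They were chosen by symbol, and a gene's value was that of the transcript cluster (the probe set that covers a gene on this array) carrying that symbol alone. Where there were several, the brightest was taken. All 9 were found among the 19260 genes measured in this way, and the platform's Entrez identifier of each led to the same symbol in the current RefSeq annotation.

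In the central nervous system, nkx2.2a acts in the ventral spinal cord and in oligodendrocyte precursors. The gene olig2 acts in progenitors of the ventral spinal cord, from which motor neurons and then oligodendrocyte precursors emerge. Then olig1, a relative of olig2, and the HMG-box factor sox10 act within the lineage, and myrf switches on the myelin genes as a precursor matures. In peripheral nerves, neural crest cells that express sox10 become Schwann cells, which migrate along axons and multiply in response to neuregulin through the receptor pair erbb2 and erbb3b. The factor pou3f1, also known as Oct6, takes Schwann cells to the stage before myelination, and egr2b, also known as Krox20, takes them through it. Several of these genes are thus already on in precursors that do not yet express mbp.

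RNA of whole zebrafish larvae at 10 dpf was hybridised to 6 Affymetrix gene arrays. There were 3 arrays for metronidazole-treated larvae, kept from 5 dpf for 5 days in 5 mM metronidazole with 0.2% DMSO, and 3 for control larvae, kept in 0.2% DMSO alone. All larvae of both groups carried the transgene Tg (mbp:nfsB-egfp), in which the mbp promoter, that of myelin basic protein, drives bacterial nitroreductase and GFP, so that cells with an active mbp promoter turn metronidazole into a toxic product. Each array held RNA pooled from 5 larvae. Larvae without the transgene are not among these arrays, so that the loss of mbp-expressing cells and other effects of metronidazole cannot be told apart, and the methods state darkness only for the treatment. Transcripts of nfsB and egfp were not analysed here. The deposited values were log2 signals, whose median lay between 5.1 and 5.14 on all 6 arrays, and the number of arrays limits their precision. Differences are metronidazole minus control on that scale, with the standard error (SE) and 95% interval from limma and Benjamini-Hochberg adjustment of the p-values over the 75212 transcript clusters on the array. Arrays with the same replicate number were taken as pairs from 1 batch of larvae. The labels do not state this pairing, which was inferred from correlations in these same data, given below.

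None of the 9 regulators passed the test at an adjusted p under 0.05 (adjusted p from 0.952 to 0.982), and no gene on the array did (0% of 19260 genes). At an unadjusted limma p under 0.05 there were likewise 0 of 9 regulators, against 5.94% of all genes. Their differences were small, between -0.31 and 0.34, with 6 above and 3 below 0 and a median of 0.15, where the median of all genes was 0.02 and 46.5% of genes lay below 0. The regulators' median was 0.069 without control replicate 3, 0.088 without metronidazole replicate 2 and 0.26 with array weights. The median size of a difference, whatever its sign, was 0.27 for the regulators and 0.16 for all genes. None reached a 2-fold difference, which 2.24% of genes did. The groups were free of overlap for 1 of the 9 genes, erbb3b, against 10.9% of all genes. Within the same-numbered pairs, 5 regulators were higher in metronidazole-treated larvae in all 3 pairs and 2 were lower in all 3, which makes 7 of 9 with 1 direction throughout, against 31.6% of all genes (15.8% higher and 15.8% lower). Counting pairs in this way was chosen after the values were seen.

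The intervals bound the size of each difference. The 95% interval of every regulator lay above a 2-fold loss, with erbb2 reaching lowest, to 0.601 of the control level. The interval lay within 2-fold in both directions for 8 of the 9, against 81.9% of genes, and that of egr2b reached up to 2.03-fold. These intervals are for each gene by itself. They apply to the signal of the whole larva, in which fewer cells of a type and less RNA per cell cannot be told apart. For dim transcript clusters they may be too narrow in terms of RNA, as signals near the background compress fold changes. All but olig1 were brighter than the median transcript cluster.

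**Figure D1:**
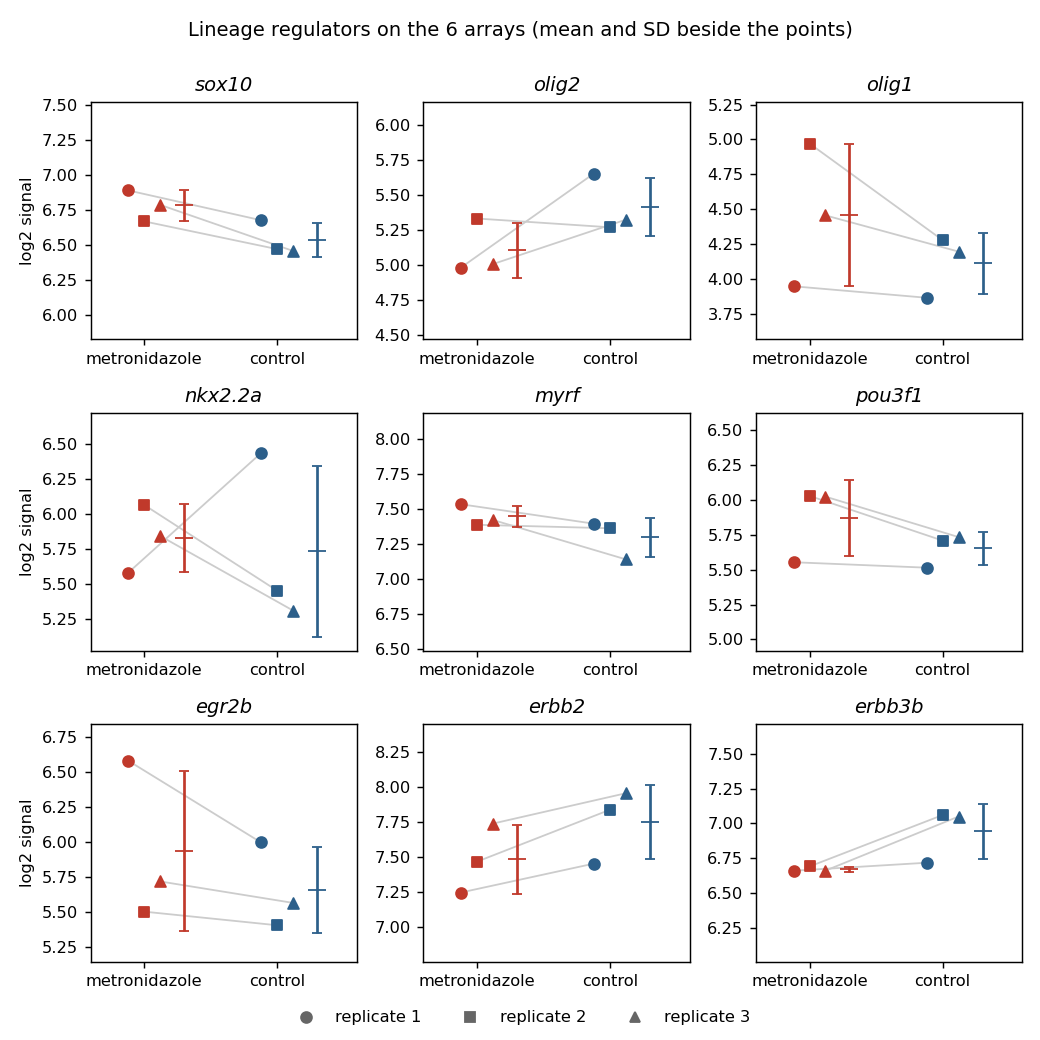
Log2 signal (vertical axes, each spanning the same range) of the 9 regulators on the metronidazole arrays (red, left) and control arrays (blue, right). Marker shapes stand for replicate numbers, grey lines join same-numbered arrays, and the bars are mean and SD (n = 3). The groups overlap in 8 of the 9 panels, and only for erbb3b do all 3 metronidazole arrays lie below all 3 control arrays.

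Among the specification factors, sox10 had the steadiest values. It encodes a factor that is needed in oligodendrocytes, Schwann cells and other derivatives of the neural crest. Its transcript cluster (13164203) read 6.89, 6.67 and 6.79 in metronidazole-treated larvae, against 6.68, 6.47 and 6.46 in control larvae. Each metronidazole array lay above the control array of its own number, while the groups overlapped by a narrow margin, since metronidazole replicate 2 fell just below control replicate 1. The difference was 0.25 (SE 0.13, 95% interval -0.07 to 0.57, limma adjusted p = 0.952), or 1.19-fold, and 0.21, 0.20 and 0.33 within the pairs.

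The gene olig2 encodes a basic helix-loop-helix factor of motor neuron and oligodendrocyte progenitors. Its signal was 4.98, 5.33 and 5.00 in metronidazole-treated larvae, against 5.65, 5.27 and 5.32 in control larvae. Metronidazole replicates 1 and 3 were the lowest of the 6 arrays, and metronidazole replicate 2 lay among the control arrays. The difference was -0.31 (SE 0.17, 95% interval -0.72 to 0.10, adjusted p = 0.952), or 0.807 of the control level. The pairs gave -0.67, 0.06 and -0.32, so the second pair did not share the direction. Without control replicate 1 the difference was -0.19.

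Its neighbour olig1, with no protein-coding gene between them in RefSeq (GRCz12tu), encodes a related factor of oligodendrocyte maturation. It was the dimmest of the 9, with 37.8% of all transcript clusters dimmer still. The values were 3.95, 4.97 and 4.46 in metronidazole-treated larvae, against 3.87, 4.28 and 4.198 in control larvae. The metronidazole arrays spread widely (SD 0.51) and enclosed most of the control range. The difference was 0.34 (SE 0.27, 95% interval -0.31 to 0.99) and was positive in all 3 pairs at 0.08, 0.69 and 0.26. It was 0.60 without metronidazole replicate 1, 0.088 without metronidazole replicate 2 and 0.22 without control replicate 1. The 2 neighbours thus had differences of opposite sign, though neither passed the test and the contrast between them was not tested.

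The homeobox gene nkx2.2a acts in the ventral spinal cord, in oligodendrocyte precursors and, outside the nervous system, in the endocrine pancreas. It read 5.58, 6.06 and 5.84 in metronidazole-treated larvae, against 6.44, 5.45 and 5.31 in control larvae. Control replicate 1 was the highest of the 6 arrays and the other two control arrays were the lowest, so the spread was greater in control (SD 0.61) than in metronidazole-treated larvae (SD 0.24). The difference was 0.10 (SE 0.32, 95% interval -0.66 to 0.85). It was -0.86 in the first pair and 0.61 and 0.53 in the others. Without control replicate 1 it was 0.45, and without metronidazole replicate 2, control replicate 2 or control replicate 3 it was negative, the lowest being -0.11 without control replicate 3.

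The 3 factors that drive myelination had positive differences in every pair, as did sox10 and olig1. That held for 15.8% of all genes. The gene myrf encodes a membrane-bound factor that is cleaved to enter the nucleus, where it switches on myelin genes in oligodendrocytes. Its signal was 7.54, 7.39 and 7.42 in metronidazole-treated larvae, against 7.40, 7.36 and 7.14 in control larvae. All values but that of control replicate 3 lay within a narrow range, and the difference of 0.15 (SE 0.13, 95% interval -0.17 to 0.47) was the most tightly bounded of the 9. Without control replicate 3 it was 0.069.

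The POU factor gene pou3f1 read 5.55, 6.03 and 6.02 in metronidazole-treated larvae, against 5.51, 5.71 and 5.73 in control larvae. In both groups replicate 1 was the lowest, and metronidazole replicates 2 and 3 were above every control array. The difference was 0.22 (SE 0.17, 95% interval -0.20 to 0.63), and 0.04, 0.32 and 0.29 within the pairs. It was 0.37 without metronidazole replicate 1 and 0.14 without either of the other metronidazole arrays.

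The zinc finger gene egr2b marks myelinating Schwann cells and, earlier, segments of the hindbrain. It read 6.58, 5.50 and 5.72 in metronidazole-treated larvae, against 6.00, 5.40 and 5.56 in control larvae. Replicate 1 was the highest in both groups, and metronidazole replicate 1 stood 0.59 above its partner. The difference was 0.28 (SE 0.31, 95% interval -0.46 to 1.02), with 0.59, 0.10 and 0.15 within the pairs. Without metronidazole replicate 1 it was -0.045, so the size and the sign of this difference rested on that array.

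**Figure D2:**
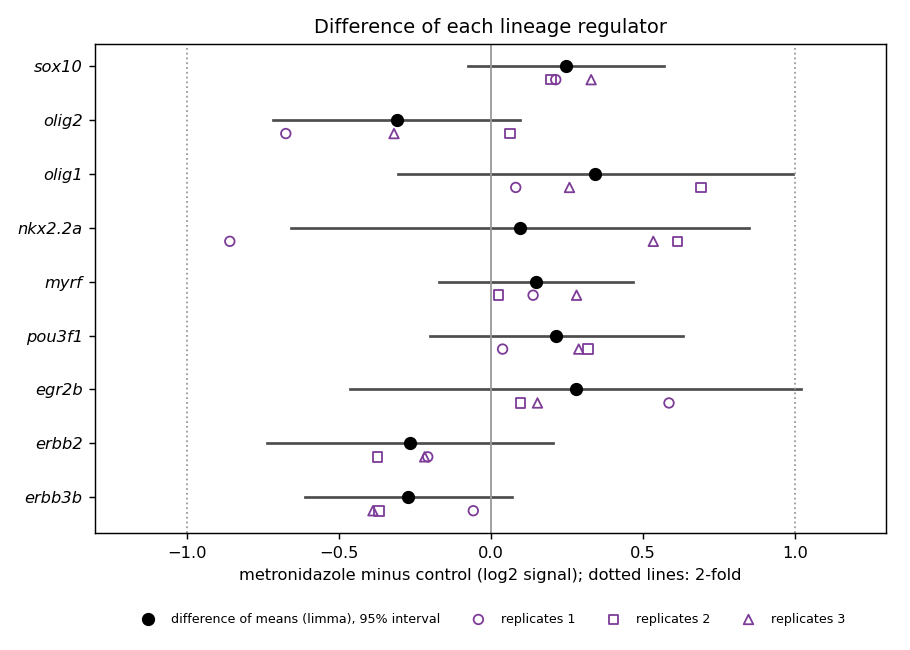
Difference of each regulator, metronidazole minus control, in log2 signal (horizontal axis). Black points and lines are limma's difference and its 95% interval (n = 3 arrays per group), open symbols are the differences within same-numbered pairs, and dotted lines mark 2-fold. All 9 intervals include 0 and only that of egr2b crosses a 2-fold line, at 1.02.

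Both receptor genes had lower means in metronidazole-treated larvae. The gene erbb3b encodes a receptor that binds neuregulin and signals through its partner, and zebrafish that lack it do not form Schwann cells along the lateral line nerve. Its signal was 6.66, 6.69 and 6.66 in metronidazole-treated larvae, against 6.72, 7.06 and 7.05 in control larvae. The metronidazole arrays were nearly equal (SD 0.02) and lay below all control arrays, the closest being control replicate 1. The difference was -0.27 (SE 0.14, 95% interval -0.61 to 0.07, adjusted p = 0.952), or 0.829 of the control level, and -0.06, -0.37 and -0.39 within the pairs. Of all genes, 5.73% were lower without overlap. An exact permutation test of 3 arrays against 3 cannot give a p below 0.1.

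The gene erbb2 encodes the partner that carries the active kinase of the pair. The brightest transcript cluster with its symbol alone (12989734) read 7.25, 7.47 and 7.74 in metronidazole-treated larvae, against 7.45, 7.84 and 7.96 in control larvae. The groups overlapped, but in each pair the metronidazole array was the lower, with differences of -0.21, -0.37 and -0.22. The difference was -0.27 (SE 0.20, 95% interval -0.74 to 0.20), or 0.832 of the control level. Leaving out metronidazole replicate 1 gave -0.15, leaving out control replicate 1 gave -0.41, and leaving out control replicate 3 gave -0.16. The other transcript cluster with the symbol alone (12983436) went the opposite way. It was dim, with 46.9% of all transcript clusters dimmer, and read 5.06, 4.84 and 5.24 in metronidazole-treated larvae, against 4.80, 4.76 and 4.71 in control larvae. There all metronidazole arrays lay above all control arrays, with a difference of 0.29 (SE 0.15, adjusted p = 0.952). A further transcript cluster (12988370) carries the symbol of ppifb as well and was not used. It had a difference of -0.22 (SE 0.19), and its groups overlapped. The direction for erbb2 therefore depended on the transcript cluster.

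ErbB receptors are also made by epithelia, and epidermal genes had lower signals on the metronidazole arrays. Of 16 measured genes of the epidermis list, 14 had negative differences, with a median of -0.61, and 5 of them were lower at an unadjusted p under 0.05, against 4.27% of all genes. With the pairs as a block 6 were, against 6.90%. Leaving out control replicate 1 gave a median of -0.93, and leaving out metronidazole replicate 1 gave -0.41. The annexin gene anxa1a had a difference of -0.67 (SE 0.21). The envoplakin gene evpla had -0.85 (SE 0.28), the desmoplakin gene dspa -0.73 (SE 0.27) and tp63, a factor of basal keratinocytes, -0.51 (SE 0.20). None passed the adjusted test (limma adjusted p = 0.952). The mean signal of the list was 8.60, 9.30 and 9.28 on the metronidazole arrays, against 9.13, 9.84 and 10.08 on the control arrays. Replicate 1 was the lowest of its group here and for erbb2. The same held for olig1, pou3f1, erbb3a and the mean signals of the enterocyte, neuron and radial glia lists. It held for erbb3b too, though metronidazole replicates 1 and 3 were nearly equal there (6.6618 and 6.6626). The part of epidermal RNA in the receptor signals was not tested.

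**Figure D3:**
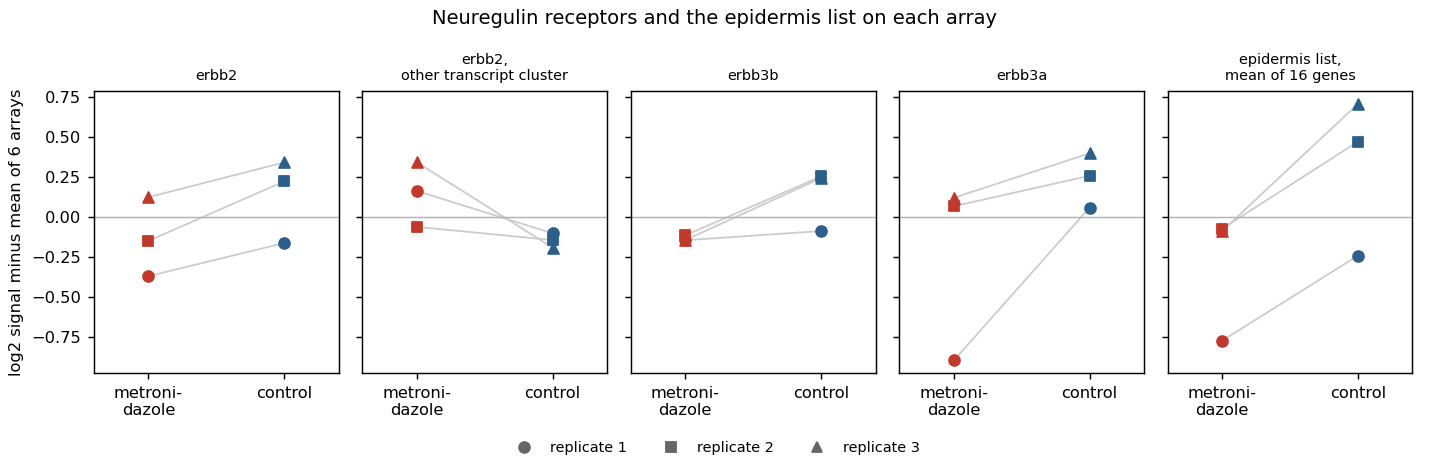
Log2 signal minus the mean of the 6 arrays (vertical axis) for both transcript clusters with the erbb2 symbol alone, for erbb3b and erbb3a, and for the mean of the 16 epidermis genes. Metronidazole arrays are red (left) and control arrays blue (right), with same-numbered arrays joined. The lines climb towards control in every panel but that of the dimmer erbb2 transcript cluster, where the difference was 0.29.

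Relatives of the regulators, picked by family after the values were seen, gave no common direction. The receptor gene erbb3a, the duplicate of erbb3b, read 6.86, 7.83 and 7.88 in metronidazole-treated larvae, against 7.82, 8.02 and 8.16 in control larvae, a difference of -0.47 (SE 0.29) that was largest in the first pair. The other receptor genes erbb4a and egfra had differences of 0.23 (SE 0.16) and 0.32 (SE 0.23). For egfra, metronidazole replicate 1 was high at 7.44 and the rest lay between 6.55 and 6.82. The SoxE genes sox9a and sox9b, relatives of sox10 that act in neural crest and cartilage, had differences of 0.0058 (SE 0.13) and -0.0027 (SE 0.20). The related sox8b had -0.05 (SE 0.27). The duplicate nkx2.2b was dim and did not overlap between the groups, at 4.60, 3.91 and 4.06 in metronidazole-treated larvae, against 3.84, 3.88 and 3.68 in control larvae, with a difference of 0.39 (SE 0.20). The POU factor gene pou3f2a, also known as Brn2, which overlaps with pou3f1 in mouse Schwann cells, did not overlap either, at 7.29, 7.30 and 7.36 in metronidazole-treated larvae, against 7.16, 7.07 and 6.96 in control larvae, a difference of 0.25 (SE 0.12). Of all genes, 5.14% were higher without overlap. The related pou3f2b had 0.32 (SE 0.20), pou3f3a -0.11 (SE 0.18) and pou3f3b 0.21 (SE 0.18). The olig2 relatives olig3 and olig4 had 0.18 (SE 0.24) and 0.25 (SE 0.17), where olig2 had -0.31.

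The family of egr2b varied most between arrays. The immediate early gene egr1 read 10.16, 8.82 and 9.53 in metronidazole-treated larvae, against 9.04, 9.81 and 10.11 in control larvae, and egr3 read 8.84, 7.71 and 7.34 in metronidazole-treated larvae, against 6.70, 7.07 and 8.13 in control larvae. Metronidazole replicate 1 was the highest of the 6 arrays for both, as it was for egr2b. The gene nab1b, which encodes a cofactor that binds EGR proteins, was also highest there, at 8.38, with the rest between 6.50 and 6.98. The duplicate egr2a did not follow, as its highest value was 6.95 in control replicate 3.

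Other genes of the glial lineages, listed for their function, had list medians near that of all genes. The lists share genes with each other and with the relatives above, such as sox8b and erbb3a. Their signals are those of the whole larva and not of glia alone. Of 41 measured genes of the oligodendrocyte lineage, 17 had negative and 24 positive differences, with a median of 0.06. The platelet-derived growth factor gene pdgfab, of the family that feeds oligodendrocyte precursors, had -0.36 (SE 0.14). It was the only 1 of the list at an unadjusted limma p under 0.05 (0.070 with the pairs as a block). At that threshold 4.27% of all genes were lower. The next in order of p were nfia, a factor of glial precursors, with 0.30 (SE 0.13), tmem98, a protein that binds Myrf in mouse, with -0.40 (SE 0.17), and myt1la, a factor of young neurons, with 0.30 (SE 0.14). Of 37 genes of the Schwann cell lineage, 14 were negative and 0 passed an unadjusted p under 0.05, with a median of 0.08. Besides nab1b, pou3f2a and erbb3a, the lowest p in this list was that of the adhesion gene ncam1a, with 0.21 (SE 0.13). With the pairs as a block s100b, with -0.52, was lower at an unadjusted limma p under 0.05 (0.040), as were 6.9% of all genes. Of 26 genes of neuregulin and ErbB signalling, 8 were negative and again 0 passed, with a median of 0.09. The adaptor gene grb2b, with -0.21 (SE 0.13), was the only 1 of them without overlap between the groups. It was lower, as were 5.73% of all genes without overlap.

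The measured myelin structural genes showed no common direction. Of 30 listed, 19 were measured, and mpz, plp1a and plp1b were not among them. Of the 19, 9 had negative differences, with a median of 0.03, and 0 passed an unadjusted p under 0.05. With single arrays left out that median lay between -0.17 and 0.037, the lowest without metronidazole replicate 3. The list was not limited to genes that act in myelin alone. The gene mbpa, a zebrafish copy of mbp, read 8.28, 8.71 and 8.66 in metronidazole-treated larvae, against 8.69, 8.61 and 8.77 in control larvae. Its difference was -0.14 (SE 0.16, 95% interval -0.52 to 0.24), and that of the other copy mbpb was 0.03 (SE 0.13, 95% interval -0.27 to 0.34). Both intervals lay above a 2-fold loss in the whole larva. The lowest p in this list was that of fa2h, an enzyme that hydroxylates myelin lipids and also acts in skin, with -0.55 (SE 0.24). With the pairs as a block it was lower at an unadjusted limma p under 0.05 (0.010), as were 6.9% of all genes. The gene mag, which encodes a glycoprotein at the contact of myelin and axon, had 0.29 (SE 0.13). It was higher without overlap, as were 5.14% of all genes. Differences of mpzl3 and the oligodendrocyte enzyme gene enpp6 were -0.29 and -0.21.

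**Figure D4:**
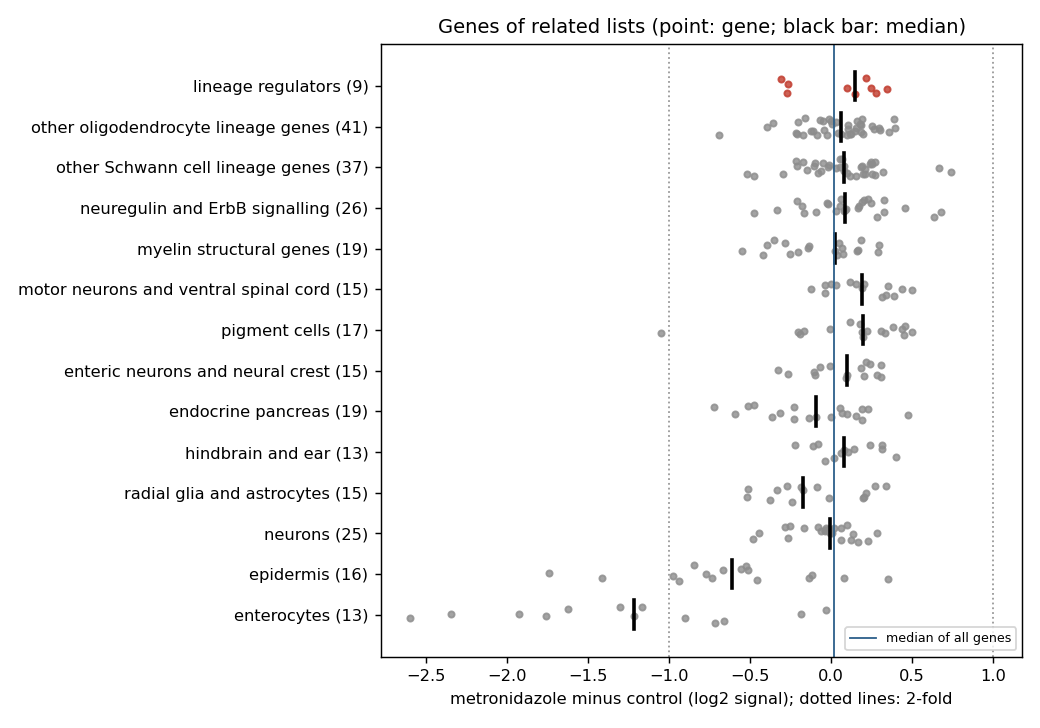
Differences of single genes, metronidazole minus control in log2 signal (horizontal axis), for the 9 regulators (red) and the genes of related lists (grey), with the number measured in parentheses. Black bars are list medians, the blue line is the median of all genes at 0.02, and dotted lines mark 2-fold. The regulators lie between -0.31 and 0.34, while the epidermis and enterocyte lists lie mostly to the left, with medians of -0.61 and -1.21.

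Because the regulators are also used outside myelinating glia, markers of those cells were read on the same arrays. Motor neurons come from the olig2 domain, and of 15 genes of motor neurons and ventral spinal cord 11 had positive differences, with a median of 0.19. That median rested in part on single arrays, being 0.013 without control replicate 3, 0.10 without metronidazole replicate 3, 0.29 without metronidazole replicate 1 and 0.33 without control replicate 1. At an unadjusted p under 0.05, 4 were higher, against 1.68% of all genes. With the pairs as a block 2 of these were, slc18a3a and lhx4, against 2.38% of all genes, while chata had a p of 0.083 and slc5a7a of 0.052 in that limma fit. The vesicular acetylcholine transporter gene slc18a3a had 0.50 (SE 0.13), the choline acetyltransferase gene chata 0.31 (SE 0.13), the choline transporter gene slc5a7a 0.34 (SE 0.14) and the homeobox gene lhx4 0.44 (SE 0.17), all 4 without overlap (5.14% of genes were higher without overlap) and none past the adjusted test (adjusted p = 0.952). In the same list foxa2 was lower without overlap, with -0.13 (SE 0.12), as were 5.73% of all genes. The homeobox genes mnx1, mnx2a and mnx2b had 0.15, -0.003 and 0.03, and isl1a, isl2a and isl2b had 0.19, 0.12 and 0.35. Mean signals of the list overlapped, at 7.02, 7.07 and 7.11 on the metronidazole arrays, against 7.07, 6.88 and 6.69 on the control arrays. The mean of olig2 was lower in metronidazole-treated larvae while that of this list was not, and their relation was not tested.

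Pigment cells and enteric neurons share the neural crest origin and, at times, sox10. Of 17 pigment cell genes 12 had positive differences, with a median of 0.19, among them oca2 with 0.45 (SE 0.24), ltk with 0.45 (SE 0.25) and pmela with 0.44 (SE 0.28). In this list only xdh, of pteridine and purine metabolism, was at an unadjusted limma p under 0.05, with -1.05 (SE 0.43). At that threshold 4.27% of all genes were lower. The mean signal of the pigment genes was 6.82, 7.29 and 7.20 on the metronidazole arrays, against 7.08, 7.04 and 6.81 on the control arrays, so that metronidazole replicate 1, the highest array for sox10, was near the lowest for this list. Of 15 genes of enteric neurons and neural crest 9 were positive, with a median of 0.10 and values of 0.31 (SE 0.16) for twist1a, 0.28 (SE 0.14) for elavl4, 0.24 (SE 0.14) for ret and -0.27 (SE 0.17) for hand2. The list means overlapped there too, between 6.75 and 6.94 on the metronidazole arrays and between 6.74 and 6.87 on the control arrays. The part of these cells in the sox10 signal was not tested.

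The genes whose values most resembled those of sox10 over the 6 arrays were tmem94, dhx38, cdh2, tbc1d9 and avpr1aa. Likeness was the root-mean-square difference between values centred on each gene's own mean, among genes brighter than the median transcript cluster, and ran from 0.02 for tmem94 to 0.03 for avpr1aa. Genes chosen in this way must have differences between the groups close to the 0.25 of sox10, and theirs lay between 0.22 and 0.26. Of the 5, 1 had no overlap, tmem94, against 10.9% of all genes. With 6 arrays and many genes to choose from, such close matches say nothing of shared control.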

How the data were processed

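Per the labels and the study's methods, RNA from pools of larvae was hybridised to GeneChip Zebrafish Gene 1.0 ST arrays. The authors deposited log2 signals, 1 per transcript cluster and array. The labels name MAS5 without its role, and the background correction and normalization are not given in the sources used here. Both steps bear on dim signals, whose fold changes may therefore be understated.

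Symbols came from the platform's table, in which 20806 transcript clusters carry a single symbol. No coordinates are given, as it names no build, and sequences were not used here. The groups were compared with limma 3.58.1 under R 4.3.3 (functions lmFit and eBayes, two-sided, without a batch term, since the methods name an unpaired test). The fit had 4 residual degrees of freedom, and the threshold was 0.05. The code was also run on simulated arrays with added changes. Those had independent noise and no batches, so the run checks the code and not the differences given here. Python 3.11.15 made the tables and plots.

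Besides the 9 genes, mbpa, mbpb, up to 4 genes of each list with the lowest p and the 5 genes most like sox10 were named. Outside this rule, relatives picked by family after the values were seen and some further list genes were also named. The members and lists were chosen with earlier results of these data known. The methods state 3 batches of larvae. Taken as deviations from group means, same-numbered arrays correlated at 0.241, 0.148 and 0.127 and other pairs between -0.171 and 0.0506, so the numbers were taken as pairs. Such deviations sum to 0 within a group, which builds in part of this contrast. The alternatives were quantile normalization, median centring, bright transcript clusters only, a replicate block, each array left out, an intensity trend, array weights, the methods' t-test, linear signals and other transcript clusters of a gene.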

Additional observations from a re-analysis of the deposited data

How the results depend on the processing

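No regulator and no transcript cluster passed the adjusted test under any alternative run. Of 126 values of the regulators under alternatives, 121 kept their direction. The replicate block, the intensity trend, the bright-only filter and the t-test leave a difference itself unchanged. Their values, which are among the 121, could therefore not reverse. Leaving out arrays took nkx2.2a from -0.11 to 0.45 and egr2b from -0.045 to 0.50. The other transcript cluster with the erbb2 symbol alone gave 0.29. The bright-only filter left out olig1. At an unadjusted limma p under 0.05, 1 regulator passed with array weights (erbb3b) and 0 to 2 when arrays were left out. These were olig1 and pou3f1 without metronidazole replicate 1 and erbb3b without control replicate 1. Of all 19260 genes, 860 were higher and 1426 lower at that p with array weights. The counts were 264 and 578 without metronidazole replicate 1, and 1008 and 1524 without control replicate 1.

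Genes at an unadjusted p under 0.05 numbered 323 higher and 822 lower as reported. With array weights they were 860 and 1426. Lower genes numbered 1328 with the replicate block and 503 by the methods' t-test. Leaving out arrays gave 98 to 1008 higher and 410 to 1524 lower, the fewest without control replicate 2 and the most without control replicate 1. The replicate block changed no call of a regulator (adjusted p from 0.771 to 0.971). The medians of 4 lists changed sign. That of neurons was 0.019 with array weights and -0.12 to 0.13 with arrays left out (the highest without metronidazole replicate 1), that of radial glia -0.23 to 0.0005 (the highest without metronidazole replicate 1), that of the oligodendrocyte lineage -0.0015 to 0.17 and that of the myelin genes -0.17 to 0.037 (both lowest without metronidazole replicate 3). The causes were not tested.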

Other observations

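Markers of further cells in which the regulators are used, or which surround myelinating glia, were measured on the same arrays. Of 19 genes of the endocrine pancreas, where nkx2.2a acts, 11 had negative differences, with a median of -0.09. The insulin gene ins had -0.73 (SE 0.34), the somatostatin gene sst1.1 -0.51 (SE 0.26), pdx1 -0.31 (SE 0.17) and neurod1, which neurons also express, 0.48 (SE 0.22). Of 13 genes of the hindbrain and ear, 9 were positive, with a median of 0.08 and values of 0.40 (SE 0.20) for myo7aa, 0.31 for oc90 and for tecta and 0.24 for hoxb3a. None of the genes of either list was at an unadjusted limma p under 0.05. With the pairs as a block ins was lower at that threshold, as were 6.9% of all genes. In that fit neurod1 was higher, as were 2.38% of all genes.

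Of 15 genes of radial glia and astrocytes, 10 were negative, with a median of -0.17. The glutamate transporter gene slc1a3b had 0.34 (SE 0.14) and was higher at an unadjusted limma p under 0.05, as were 1.68% of all genes. With the pairs as a block its p was 0.065. The glutamine synthetase gene glula had 0.27 (SE 0.18). Both genes were higher without overlap, as were 5.14% of all genes. The Hairy-related genes her9 and her6 had -0.52 (SE 0.22) and -0.34 (SE 0.23). The 25 neuronal genes were centred near 0, with 15 negative and a median of -0.01. Among them elavl4 and syt1a had 0.28 and 0.17, both higher without overlap, as were 5.14% of all genes. Values of nefma and ckbb were 0.23 and -0.48 (SE 0.36). With the pairs as a block, ckbb and, in the radial glia list, s100b were lower at an unadjusted limma p under 0.05. So were 6.9% of all genes. The enterocyte list had the most negative median, -1.21 over 13 genes, all of them negative. The list mean was 6.37, 7.75 and 7.23 on the metronidazole arrays, against 7.89, 8.57 and 8.68 on the control arrays, and the median was -0.74 without metronidazole replicate 1 and -1.71 without metronidazole replicate 2. Single genes had -1.17 (SE 0.17) for dpp4, -2.60 (SE 0.45) for mep1ba, -1.76 (SE 0.43) for mep1a.1 and -0.66 (SE 0.17) for cdx1b. No gene in these lists passed the adjusted test.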
